A study of Rattus norvegicus with 10 samples.

Results

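The receptors for serotonin, dopamine, noradrenaline and acetylcholine are described here in female rats of the TgF344-AD line, a transgenic model of Alzheimer's disease, from bulk RNA of the left hippocampus. The members are the genes whose symbols begin with Htr, Drd, Adra or Adrb and a number, the muscarinic genes Chrm1 to Chrm5, and the nicotinic subunit genes of the Chrna, Chrnb, Chrnd, Chrne and Chrng series. The rule matched 49 of the 17168 gene symbols in the count table, and 32 of the 49 had enough counts to be tested. Bulk mRNA was sequenced from 10 rats, all female, all carrying the TgF344-AD transgenes and all killed at 11 months of age. The untreated group held 5 rats on ordinary rodent chow. The RG2833 group held 5 rats whose chow carried 750 mg of RG2833 per kg for 6 months from the age of 5 months, and a blue food dye told the chows apart. At the end all rats were anaesthetised with ketamine and xylazine, the latter an agonist of alpha-2 adrenergic receptors, and perfused with saline before the hippocampus was frozen. RG2833 is an inhibitor of the histone deacetylases HDAC1 and HDAC3. The TgF344-AD line expresses mutant human APP and presenilin transgenes from a mouse prion promoter, so both groups carry them, and no group of non-transgenic rats was analysed here.

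The monoamines and acetylcholine reach the hippocampus mainly from distant nuclei, serotonin from the raphe, noradrenaline from the locus coeruleus, dopamine from the midbrain and acetylcholine from the medial septum. Their receptors are made by cells within the hippocampus. Most are G-protein-coupled and act through Gs, which raises cyclic AMP, through Gi/o, which lowers it, or through Gq/11, which activates phospholipase C. The serotonin receptor of the Htr3 genes and the nicotinic receptors are ion channels built from 5 subunits.

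Library depth and composition bear on all of these genes. Total counts ran from 8764245 to 11131402 in untreated and from 9535060 to 11311652 in RG2833 animals. Ribosomal RNA genes took 3.83 ± 1.29% of counts (SD, n = 5) in untreated and 1.56 ± 0.368% (SD, n = 5) in RG2833 animals, with all RG2833 animals below all untreated ones (exact permutation, two-sided, p = 0.00794, the smallest that 5 against 5 can give). Because this share separates the animals as treatment does, the treatment and the share cannot be told apart. With that percentage in the model, 0 of the 32 receptor genes passed in edgeR (3 at an unadjusted p under 0.05), and no other tool was run with it. Markers of excitatory neurons were present in all animals, with a summed level of 4263 to 6665 CPM (counts per 1e6 after TMM scaling of library sizes). The values of untreated replicates 1 and 4 are given next. Untreated replicate 1 had a summed choroid plexus marker level of 2895 CPM against 67.1 to 166 CPM in the other 9 animals, and the highest oligodendrocyte marker sum (17895 CPM, the others up to 12727 CPM). Untreated replicate 4 lay nearer to the RG2833 mean than to the mean of the other untreated animals in 23 of the 32 receptor genes (71.9%), against 57.2% of all tested genes. It lay inside the RG2833 range in 18 of the 32 (56.2%), against 60% of all tested genes, so by that measure the receptor genes did not stand out.

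Counts above 0 were found in at least 1 animal for 45 of the 49 genes, and each animal held between 39 and 43 of them. The number per animal was 41.0 ± 1.22 (SD, n = 5) in untreated and 41.2 ± 1.48 (SD, n = 5) in RG2833 animals (two-sided exact permutation test, p = 1). Htr3b, the partner subunit of Htr3a, and the nicotinic subunit genes Chrna6, Chrna9 and Chrnd had no count in any animal. A count of 0 allows up to 3 counts, or 0.268 to 0.343 CPM in these libraries, and covers counting error only. The other 13 untested genes had between 1 count (Drd3) and 83 counts (Chrnb1) over all 10 animals. Among them, Adrb3 had 23 counts in untreated and 58 in RG2833 animals, Htr1f 40 and 23, Adra2b 32 and 21, Chrna3 18 and 5, and Chrnb4 27 and 14, and the groups overlapped for each of these 5 genes. By family, the tested genes were 10 of 14 serotonin, 3 of 5 dopamine, 7 of 9 adrenergic, 5 of 5 muscarinic and 7 of 16 nicotinic genes. Transcript lengths behind the counts are not given in the sources used here, so levels were compared between groups and not between genes.

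Of the 32 tested receptor genes, 5 passed the threshold of 0.05 on the adjusted p (quasi-likelihood fit in edgeR, with Benjamini-Hochberg adjustment over all 11791 tested genes). Htr6 and Chrm1 rose, and Htr2c, Chrna1 and Chrna4 fell in RG2833 animals. The 5 genes are 15.6% of those tested, against 5.08% of all tested genes, 2.41% called higher and 2.67% called lower. The list itself was not tested. At an unadjusted p under 0.05, 11 of the 32 passed, against 24.5% of all tested genes. The 5 RG2833 values lay entirely to 1 side of the 5 untreated values in 2 of the 32 receptor genes, Chrna1 and Htr6. That share is near the 7.27% of all tested genes. The median log2 fold change over the 32 genes was -0.041, with 15 estimates above 0 and 17 below, and that over all tested genes was -0.0035. In bulk tissue, fewer cells that express a gene and less RNA per cell cannot be told apart.

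**Figure D1:**
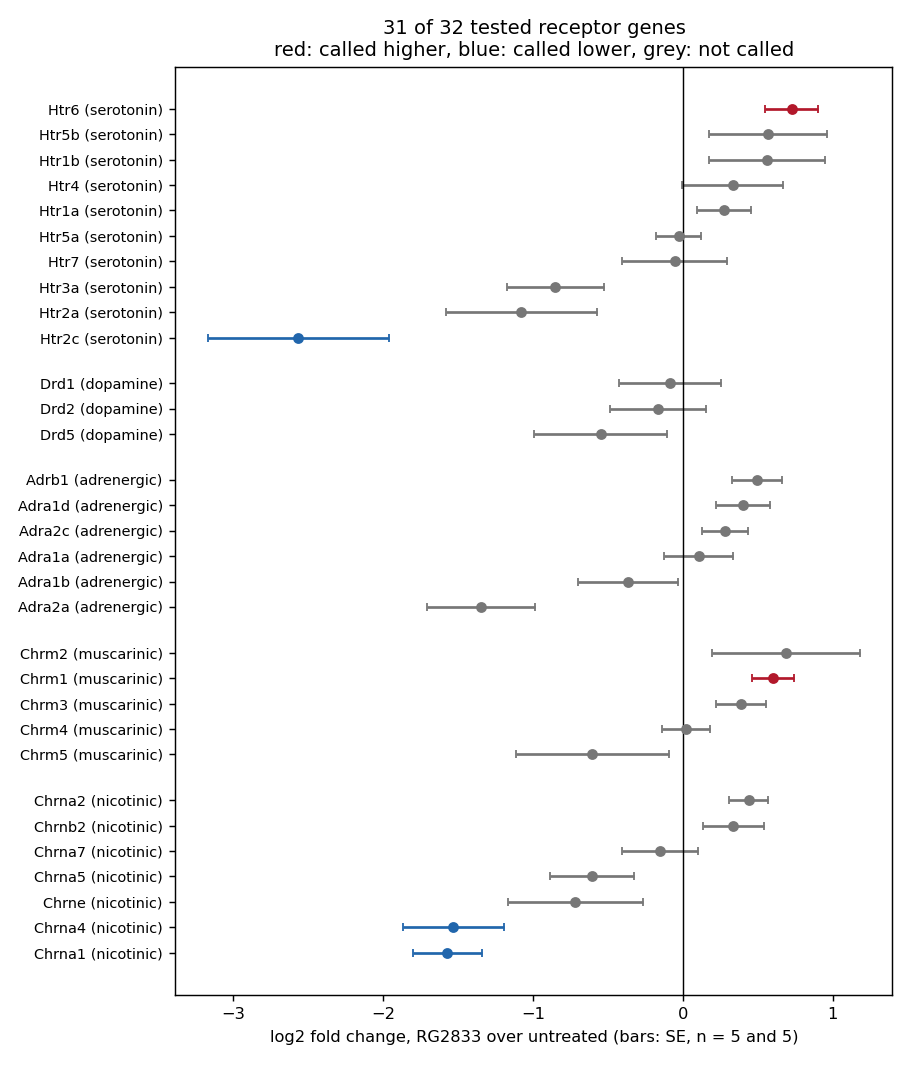
The plot of fold changes by family gives the log2 fold change (RG2833 over untreated, horizontal axis) of 31 of the 32 tested receptor genes, with bars for the standard error and colours for the edgeR call. Estimates run from -2.56 (Htr2c) to 0.73 (Htr6), and the 2 genes called higher and 3 called lower come from the serotonin, muscarinic and nicotinic families.

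To show the start regions of the genes with the clearest and the largest changes, the 250 bases upstream of the annotated start of Chrna1, Htr6 and Htr2c are given 5′ to 3′ from RefSeq's GRCr8 table. They lie at chr3:78877354-78877603 (minus strand), chr5:156595148-156595397 (minus strand) and chrX:115452940-115453189 (plus strand). Capitals mark each match to the E-box letters CANNTG, the site class bound by helix-loop-helix factors.
Chrna1: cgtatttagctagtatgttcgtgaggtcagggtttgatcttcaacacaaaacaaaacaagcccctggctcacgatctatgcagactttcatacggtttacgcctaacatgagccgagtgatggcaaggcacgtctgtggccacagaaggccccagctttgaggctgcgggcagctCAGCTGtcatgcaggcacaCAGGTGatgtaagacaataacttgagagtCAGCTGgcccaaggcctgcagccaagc
Htr6: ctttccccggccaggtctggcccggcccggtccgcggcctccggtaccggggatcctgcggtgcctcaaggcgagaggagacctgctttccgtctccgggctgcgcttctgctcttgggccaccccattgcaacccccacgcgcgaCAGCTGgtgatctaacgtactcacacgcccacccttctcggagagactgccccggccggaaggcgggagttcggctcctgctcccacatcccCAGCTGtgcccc
Htr2c: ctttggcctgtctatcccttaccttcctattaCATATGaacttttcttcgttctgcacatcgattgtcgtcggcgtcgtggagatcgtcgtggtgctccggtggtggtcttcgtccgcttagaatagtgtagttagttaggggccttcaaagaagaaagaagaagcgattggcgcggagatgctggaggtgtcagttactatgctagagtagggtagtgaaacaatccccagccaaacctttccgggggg
The Chrna1 stretch held 3 matches to CANNTG, the Htr6 stretch 2 and the Htr2c stretch 1. The form CAGCTG occurred 2 times upstream of Chrna1, 2 times upstream of Htr6 and 0 times upstream of Htr2c. Searched on both strands over all 33469 upstream windows of this length, CANNTG was found in 65.5%, and CAGCTG, which is a subset of it, in 12%. Promoters were found for 38 of the 49 receptor genes, of which 24 held CANNTG and 7 held CAGCTG. The GC box letters GGGCGG were in 18 of the 38, against 30.5% of all windows, and the cyclic AMP response element TGACGTCA was in 0 of the 38, against 1.59%. No GC box letters were in the 3 stretches printed. These counts describe letters in a window and were not tested against expression.

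The serotonin receptor genes moved in both directions. Htr2c, whose Gq/11-coupled receptor is abundant in the choroid plexus and also made by neurons, had the largest change of the tested receptor genes. In untreated replicates 1 to 5 its level was 88.5, 38.2, 166, 9.96 and 203 CPM, and in RG2833 replicates 1 to 5 it was 14.2, 18.1, 19.5, 23.1 and 10.5 CPM. The untreated values of replicates 1, 2, 3 and 5 all lay above the RG2833 range, while replicate 4 lay below it, so the groups overlapped. The means were 101 ± 82.3 and 17.1 ± 4.87 CPM (SD, n = 5), and the fitted log2 fold change was -2.56 ± 0.60 (SE; adjusted p = 0.0353 by edgeR), or 5.92-fold lower. The call held without untreated replicate 2, 4 or 5 (adjusted p = 0.0418, 0.0016 and 0.0444 by edgeR) and was lost in the other 7 fits that left out 1 animal, where the adjusted p by edgeR ran from 0.0596 to 0.102. Limma-voom gave -1.96 (adjusted p = 0.151).

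Choroid plexus markers are given beside Htr2c because that tissue is rich in its RNA. The 12 markers of that list were present in the table and 5 were tested. All 5 had estimates below 0, 3 had an unadjusted p under 0.05, and edgeR called 1 lower (Prlr), DESeq2 2 and limma-voom 1. Prlr, the prolactin receptor gene, was 3.55, 3.10, 4.73, 2.89 and 4.97 CPM in untreated and 1.72 to 2.59 CPM in RG2833 animals. Its order among the untreated animals was that of Htr2c, and the other tested markers each had another order. Kcne2, a potassium channel subunit gene, was 9.15, 3.80, 2.22, 3.07 and 2.54 CPM in untreated and 1.03 to 1.99 CPM in RG2833 animals. It was also lower in each RG2833 animal than in each untreated animal. The summed level of the 12 markers was 2895 CPM in untreated replicate 1 and 71.6, 67.1 and 93.9 CPM in untreated replicates 2, 3 and 5, which had high Htr2c. It was 110 CPM in untreated replicate 4, which had the lowest Htr2c, and 81.7 to 166 CPM in RG2833 animals. Ttr (transthyretin), the defining choroid plexus transcript, was 2381 CPM in untreated replicate 1 and 3.80 to 38.4 CPM in the other 9 animals. Without untreated replicate 1 the log2 fold change of Htr2c was -2.61 (adjusted p = 0.0596 by edgeR). With a choroid plexus score over the tested markers in the model it was -2.57, and the call was lost (adjusted p = 0.0681 by edgeR). In RefSeq's GRCr8 gene table Htr2c also holds 1 snoRNA and 5 miRNA genes, and the 5 miRNA genes had no count here.

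Htr6, which encodes a Gs-coupled receptor made mainly by neurons, was 2.40, 2.80, 2.32, 2.05 and 2.12 CPM in untreated and 3.34, 4.28, 4.03, 3.10 and 4.60 CPM in RG2833 animals. Each RG2833 animal lay above each untreated animal. The means were 2.34 ± 0.295 and 3.87 ± 0.633 CPM (SD, n = 5), and the fitted log2 fold change was 0.73 ± 0.18 (SE; adjusted p = 0.0400 by edgeR), or 1.66-fold higher. These levels rest on 20 to 48 counts per animal. The call held only without untreated replicate 4 among the fits that left out 1 animal (adjusted p = 0.0406 by edgeR), and the other 9 fits gave log2 fold changes of 0.66 to 0.80 with adjusted p by edgeR from 0.0505 to 0.11. With no filter on low counts the edgeR adjusted p was 0.0514.

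Htr5b, the gene of a serotonin receptor known from rodent CA1 and habenula, was 10.6, 15.4, 15.8, 41.8 and 11.0 CPM in untreated and 16.1, 43.4, 33.4, 33.4 and 14.9 CPM in RG2833 animals. Its difference of 0.57 ± 0.39 (log2, SE) did not pass (adjusted p = 0.394 by edgeR). High values were found in untreated replicate 4 and in RG2833 replicates 2, 3 and 4. Htr1b, which encodes a Gi/o-coupled receptor found on axon terminals, was high in the same 4 animals (7.07 to 8.47 CPM) and lower in the other 6 (1.60 to 4.87 CPM). The summed level of the CA1 pyramidal cell markers followed the same split, at 1067 to 1390 CPM in those 4 animals and 316 to 731 CPM in the other 6. Of that list, 5 markers were in the table, 4 were tested and 0 were called in edgeR, DESeq2 or limma-voom (0 at an unadjusted p under 0.05). Wfs1, its defining marker, was 384 to 605 CPM in those 4 animals and 63.9 to 182 CPM in the rest, and Pou3f1 88.3 to 140 CPM and 22.9 to 43.0 CPM. The other tested markers did not follow the split: Fibcd1 was 365 CPM in untreated replicate 3 against 214 CPM in RG2833 replicate 3, and Mpped1 258 CPM against 228 CPM in the same animals. The part of the CA1 marker level in the Htr5b and Htr1b values was not tested. Without untreated replicate 4, Htr5b had a log2 fold change of 1.09 (adjusted p = 0.0339 by edgeR). The animal left out held the highest untreated value, and 13.1% of all genes tested passed in that fit.

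**Figure D2:**
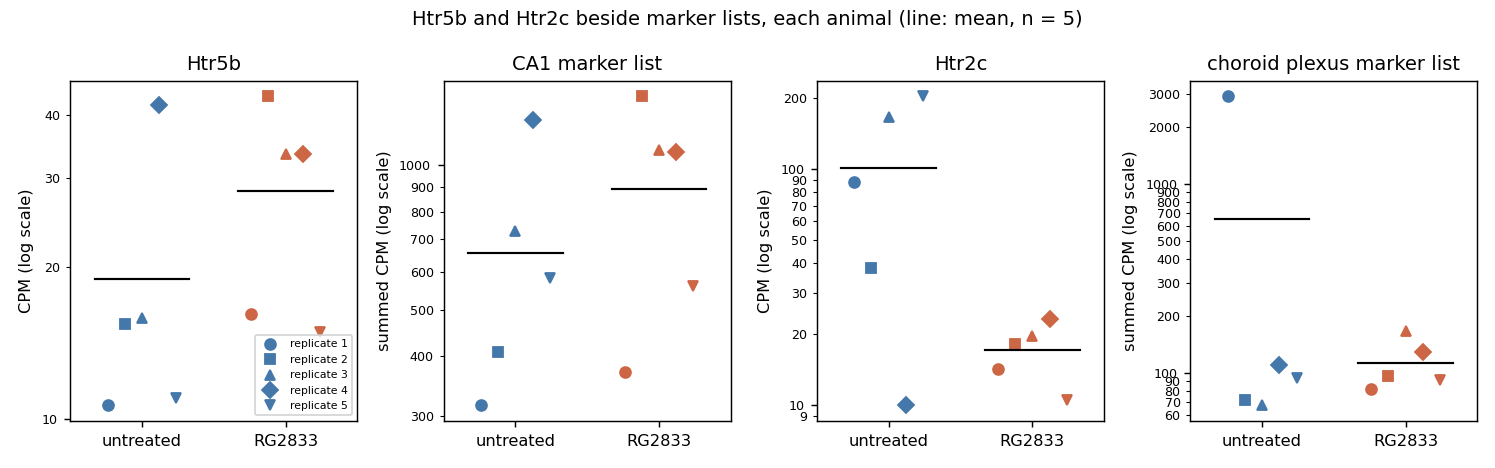
The plot of Htr5b and Htr2c beside marker lists shows each animal as a point (symbol: replicate number), with CPM or summed CPM on log axes and a line at the group mean. Untreated replicate 4 and RG2833 replicates 2, 3 and 4 are the highest in both Htr5b and the CA1 list, whereas the choroid plexus list is high in untreated replicate 1 alone (2895 CPM).

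Among the other serotonin genes, Htr3a, the channel subunit made by a class of interneurons, was 11.6, 9.59, 16.3, 4.47 and 21.9 CPM in untreated and 8.59, 7.14, 5.58, 7.55 and 6.38 CPM in RG2833 animals. As for Htr2c, untreated replicate 4 was the exception to higher untreated values. The log2 fold change of -0.85 ± 0.32 (SE) did not pass (adjusted p = 0.129 by edgeR), and it passed without untreated replicate 4 (-1.07, adjusted p = 0.0104 by edgeR). Of 10 interneuron markers tested, 0 were called in edgeR, DESeq2 or limma-voom (0 at an unadjusted p under 0.05). Htr2a (-1.08 ± 0.50), the Gq/11-coupled cortical serotonin receptor gene, and the Gi/o-coupled Htr1a (0.27 ± 0.18), a main serotonin receptor of hippocampal pyramidal cells, did not pass (log2 scale, SE; adjusted p = 0.208 and 0.37 by edgeR). The Gs-coupled Htr4 (0.33 ± 0.34) and Htr7 (-0.05 ± 0.35) and the Gi/o-coupled Htr5a (-0.03 ± 0.15) had differences below their standard errors.

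**Figure D3:**
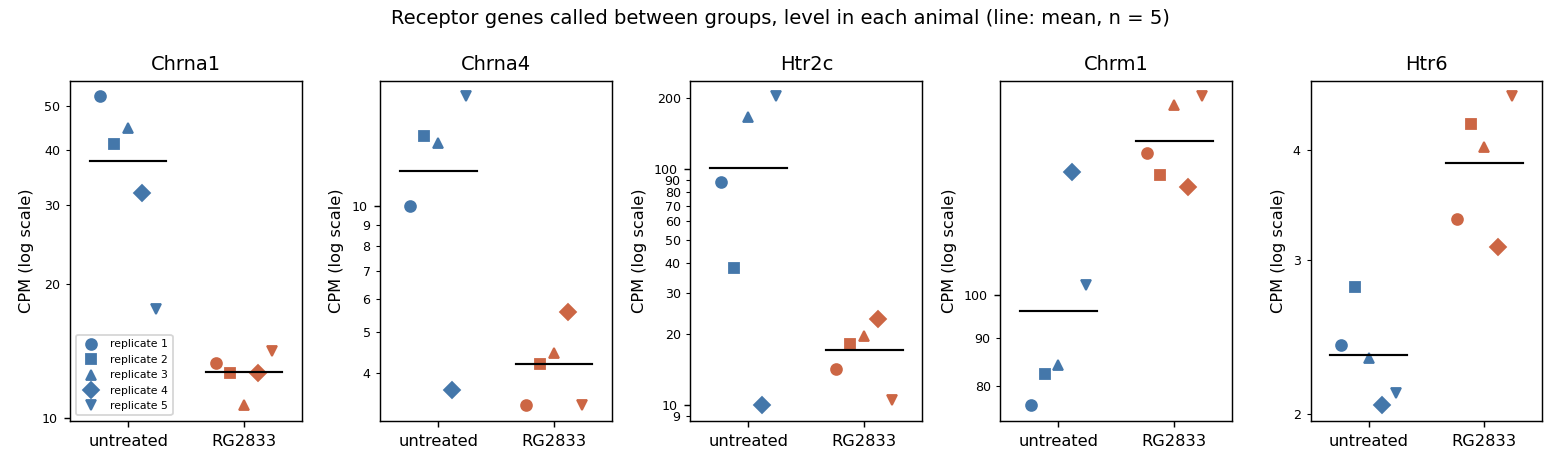
The plot of the 5 called receptor genes gives CPM on a log axis for each animal (symbol: replicate number) in both groups, with a line at the mean of 5. Chrna1 and Htr6 do not overlap between groups, and untreated replicate 4 lies among or beyond the RG2833 values for Chrna4, Htr2c and Chrm1.

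No dopamine receptor gene was called. Drd1, the Gs-coupled receptor gene of dentate granule cells and other neurons, was 3.66, 4.89, 3.52, 6.14 and 7.62 CPM in untreated and 4.67, 2.23, 7.75, 2.79 and 7.01 CPM in RG2833 animals. The Gi/o-coupled Drd2 was 2.86, 1.70, 2.04, 1.40 and 3.70 CPM in untreated and 2.0, 1.61, 3.10, 2.48 and 1.15 CPM in RG2833 animals. Drd5, Gs-coupled like Drd1, was 0.458, 0.999, 1.48, 1.02 and 2.54 CPM in untreated and 0.477, 1.16, 0.517, 1.55 and 0.732 CPM in RG2833 animals. The groups overlapped for each of these genes. The log2 fold changes were -0.09 ± 0.34 for Drd1, -0.17 ± 0.32 for Drd2 and -0.55 ± 0.44 for Drd5 (SE; adjusted p = 0.899, 0.785 and 0.472 by edgeR). When the model held the ribosomal RNA share, the log2 estimates were -1.18 for Drd1 and -0.85 for Drd2 (adjusted p = 1.00 for both by edgeR). Of the 3 tested genes, 0 had an unadjusted p under 0.05 in edgeR, and DESeq2 and limma-voom also called 0. Drd3, with 1 count in all, and Drd4, with 9, were not tested. Striatal neuron markers, which would accompany striatal tissue rich in dopamine receptors, had a summed level of 216 to 318 CPM in untreated and 237 to 262 CPM in RG2833 animals, with 0 of 10 called by edgeR (3 at an unadjusted p under 0.05), 2 by DESeq2 and 0 by limma-voom.

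No adrenergic receptor gene passed in edgeR (0 of 7, with 3 at an unadjusted p under 0.05), while DESeq2 called 1, Adra2a, and limma-voom 0. Adra2a, a Gi/o-coupled receptor gene that also acts as the autoreceptor of noradrenergic neurons, was 13.0, 13.1, 21.3, 3.63 and 21.5 CPM in untreated and 6.01, 4.82, 5.89, 7.14 and 4.60 CPM in RG2833 animals. Untreated replicate 4 was the lowest of all animals, and the other 4 untreated animals lay above the RG2833 range. The log2 fold change was -1.35 ± 0.36 (SE; adjusted p = 0.0508 by edgeR), just outside the threshold, and without untreated replicate 4 it was -1.60 (adjusted p = 0.000919 by edgeR). Library totals without TMM scaling and a stricter filter on low counts gave edgeR adjusted p = 0.0499 and 0.0475.

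Adrb1, the Gs-coupled beta receptor gene of neurons, was 4.12, 6.09, 5.93, 8.38 and 7.19 CPM in untreated and 9.06, 9.01, 8.89, 9.72 and 8.16 CPM in RG2833 animals. Only untreated replicate 4 reached the RG2833 range. The log2 fold change of 0.49 ± 0.17 (SE) did not pass (adjusted p = 0.0932 by edgeR) and passed without untreated replicate 4 (0.62, adjusted p = 0.0258 by edgeR). Adra1d, a Gq/11-coupled receptor gene, was 138, 67.5, 153, 137 and 121 CPM in untreated and 197, 174, 141, 162 and 141 CPM in RG2833 animals, with overlapping groups and a log2 fold change of 0.40 ± 0.18 (SE; adjusted p = 0.194 by edgeR). Adra2c was 18.6, 32.6, 29.5, 36.4 and 29.8 CPM in untreated and 30.4, 41.1, 34.5, 40.3 and 32.2 CPM in RG2833 animals, and its difference of 0.28 ± 0.15 (log2, SE) did not pass (adjusted p = 0.28 by edgeR). Adra2a and Adra2c, both Gi/o-coupled, thus had estimates of opposite sign, a difference that was not tested. For Adra1a and Adra1b the log2 fold changes were 0.10 and -0.37 (adjusted p = 0.82 and 0.532 by edgeR).

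The muscarinic receptors carry the septal acetylcholine signal at G proteins, and all 5 genes were tested. Chrm1, the Gq/11-coupled receptor of pyramidal neurons, rose. It was 76.3, 82.5, 84.2, 135 and 103 CPM in untreated and 142, 134, 160, 131 and 163 CPM in RG2833 animals. The only overlap came from untreated replicate 4, which lay above RG2833 replicates 2 and 4. The means were 96.2 ± 24 and 146 ± 14.7 CPM (SD, n = 5), and the fitted log2 fold change was 0.60 ± 0.14 (SE; adjusted p = 0.0357 by edgeR), or 1.52-fold higher. The call held without untreated replicate 4 (0.76, adjusted p = 0.00147 by edgeR) or 5 (adjusted p = 0.0358 by edgeR) and was lost without any other single animal (edgeR adjusted p from 0.0576 to 0.101). Chrm3, also Gq/11-coupled, was 52.6, 32.6, 42.6, 67.7 and 52.7 CPM in untreated and 52.1, 65.0, 73.2, 60.4 and 74.2 CPM in RG2833 animals. Its groups overlapped, and the log2 fold change of 0.39 ± 0.17 (SE) did not pass (adjusted p = 0.172 by edgeR), but did without untreated replicate 4 (0.53, adjusted p = 0.0356 by edgeR). When the model held the ribosomal RNA share, the estimate for Chrm3 was -0.39 (adjusted p = 1.00 by edgeR) and that for Chrm1 0.14 (adjusted p = 1.00 by edgeR). The Gi/o-coupled Chrm2 (0.69 ± 0.49) and Chrm4 (0.02 ± 0.16) and the Gq/11-coupled Chrm5 (-0.60 ± 0.51) did not pass (log2 scale, SE; adjusted p = 0.413, 0.951 and 0.493 by edgeR). Excitatory neuron markers had 0 of 7 genes called by edgeR (3 at an unadjusted p under 0.05), 3 by DESeq2 and 1 by limma-voom. Their median log2 fold change was 0.50 and their summed level 4263 to 5778 CPM in untreated and 5752 to 6665 CPM in RG2833 animals, and their part in the Chrm1 difference was not tested.

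The nicotinic subunit genes gave 2 calls among 7 tested in edgeR, both lower, while DESeq2 added Chrna2, whose estimate was higher, and limma-voom called Chrna1 alone. Chrna1 encodes the alpha subunit of the muscle-type nicotinic receptor, which is known from the neuromuscular junction rather than from neurons. Its level was 52.6, 41.2, 44.8, 31.9 and 17.6 CPM in untreated and 13.3, 12.6, 10.6, 12.6 and 14.1 CPM in RG2833 animals. Each untreated animal lay above each RG2833 animal, the nearest values being 17.6 CPM (untreated replicate 5) and 14.1 CPM (RG2833 replicate 5). The means were 37.6 ± 13.4 and 12.6 ± 1.28 CPM (SD, n = 5), and the fitted log2 fold change was -1.57 ± 0.23 (SE; adjusted p = 0.00724 by edgeR), or 2.97-fold lower. Leaving out each animal in turn kept the Chrna1 call in all 10 fits (-1.75 to -1.42, edgeR adjusted p from 0.000111 to 0.0295), the only receptor gene for which this held. Those 10 fits called between 0.826% and 13.1% of all tested genes. Of the other muscle-type subunit genes, Chrnd had no count, Chrng 11 counts and Chrnb1 83 counts over all animals, and Chrne did not pass (-0.72 ± 0.45, log2, SE; adjusted p = 0.346 by edgeR). Rapsn and Musk, which anchor and cluster the muscle receptor, were at a mean of 0.297 and 0.105 CPM in untreated and 0.280 and 0.213 CPM in RG2833 animals and were not tested. The expected counts of Chrna1 were not whole numbers in 9 of 10 animals (more than 0.001 from a whole number), which happens when reads are divided between genes, so the assignment of its reads is uncertain. The same held in all 10 animals for Chrna5 and Htr5b.

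Chrna4 and Chrnb2 form the main high-affinity neuronal nicotinic receptor. Chrna4 was 9.95, 14.7, 14.1, 3.63 and 18.2 CPM in untreated and 3.34, 4.19, 4.44, 5.59 and 3.35 CPM in RG2833 animals. Untreated replicate 4 lay inside the RG2833 range and the other 4 untreated animals above it. The means were 12.1 ± 5.57 and 4.18 ± 0.928 CPM (SD, n = 5), and the fitted log2 fold change was -1.53 ± 0.34 (SE; adjusted p = 0.0297 by edgeR), or 2.89-fold lower. The call held without untreated replicate 4 or 5 (adjusted p = 0.000508 and 0.0373 by edgeR) and was lost without any other single animal (edgeR adjusted p from 0.0503 to 0.0859). In RefSeq's GRCr8 gene table Chrna4 overlaps Col20a1, which was not analysed here. Chrnb2 was 21.2, 17.0, 34.0, 24.7 and 41.9 CPM in untreated and 37.7, 30.4, 34.4, 31.9 and 40.9 CPM in RG2833 animals, and its difference of 0.34 ± 0.20 (log2, SE) did not pass (adjusted p = 0.328 by edgeR). The estimates of the partner subunits had opposite signs, and their difference was not tested.

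Chrna7, the subunit of the homomeric channel common in hippocampal interneurons, did not pass (-0.15 ± 0.25, log2, SE; adjusted p = 0.754 by edgeR). Chrna2, a marker of oriens interneurons, was 5.10 to 7.51 CPM in untreated and 7.44 to 8.97 CPM in RG2833 animals and did not pass (0.44 ± 0.13, log2, SE; adjusted p = 0.0686 by edgeR). It passed without untreated replicate 5 (adjusted p = 0.0371 by edgeR). Chrna5, an accessory subunit of the receptors containing Chrna4, had a log2 fold change of -0.61 ± 0.28 (SE; adjusted p = 0.206 by edgeR). Chrna3 and Chrnb4, which form the receptor typical of the medial habenula, had 23 and 41 counts over all animals. Of the medial habenula and thalamus markers, 5 of 6 in the table were tested and 1 was called lower by edgeR (Calb2), 2 by DESeq2 and 0 by limma-voom, with a summed level of 43.5 to 93.1 CPM in untreated and 35.2 to 62.8 CPM in RG2833 animals. The defining habenular marker Gpr151 was at a mean of 0.256 and 0.209 CPM.

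**Figure D4:**
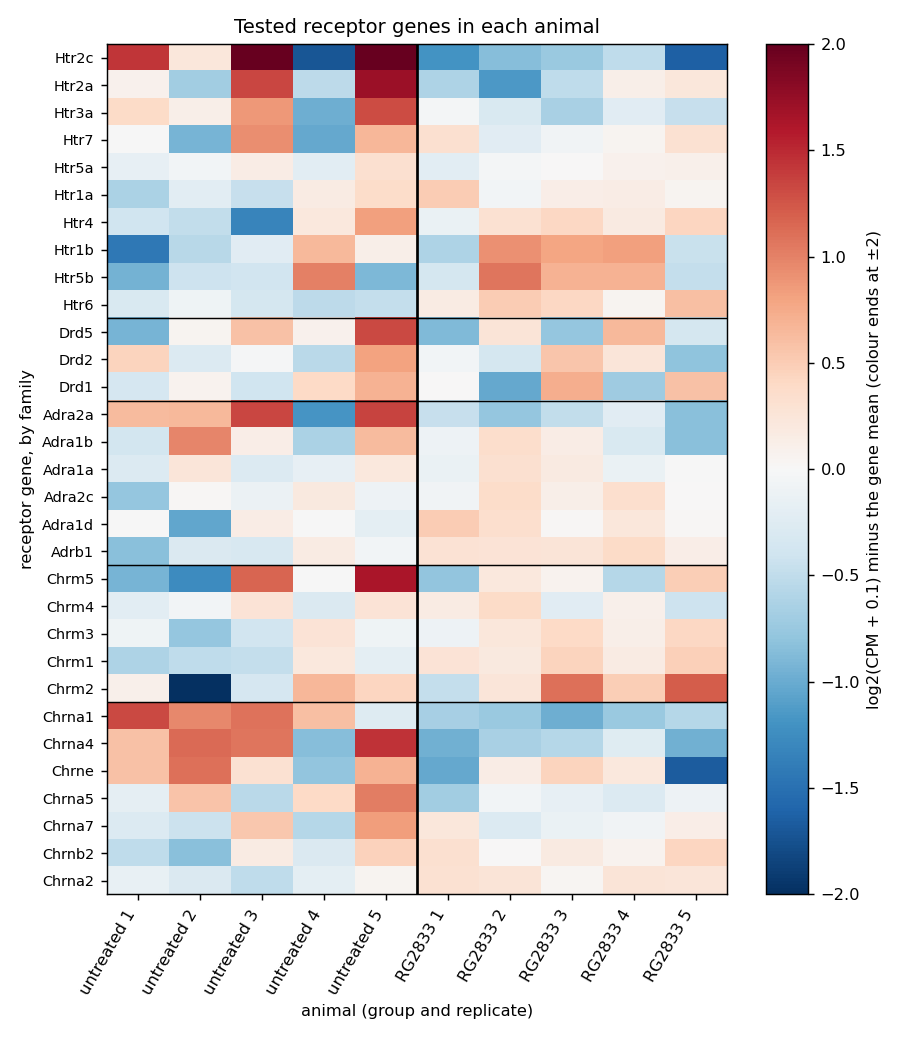
The heat map shows log2(CPM + 0.1) minus the gene mean for 31 of the 32 tested receptor genes (rows, by family) in each animal (columns, untreated left of the line). Htr2c, Htr3a, Adra2a and Chrna4 are higher in untreated replicates 1, 2, 3 and 5 than in untreated replicate 4 and each RG2833 animal. For Htr3a the margin is small (9.59 CPM in untreated replicate 2 against 8.59 CPM in RG2833 replicate 1). The dopamine receptor genes show no split between the groups.

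Several receptor genes of different families shared this arrangement of animals. With untreated replicate 4 left out, the groups did not overlap in 8 of the 32 tested receptor genes, 5 lower (Adra2a, Chrna1, Chrna4, Htr2c and Htr3a) and 3 higher (Adrb1, Chrm1 and Htr6). Chrna1 and Htr6 are in this count but did not share the arrangement. Their groups were apart with all animals, and untreated replicate 4 lay nearer to the other untreated animals than to the RG2833 mean. Among all tested genes the same held for 14.3%. In that fit edgeR called 10 of 33 receptor genes, adding Adra2a, Adrb1, Chrm3, Htr3a and Htr5b to the 5, and 13.1% of all tested genes. In the habenula and thalamus list, Calb2 had the same arrangement, at 24.7, 15.7, 16.7, 7.54 and 21.9 CPM in untreated and 6.28 to 9.25 CPM in RG2833 animals, and the other tested markers, Slc17a6, Prkcd, Tcf7l2 and Lef1, had log2 fold changes of -0.64, -0.40, -0.0093 and 0.0006. Estimates in that list were below 0 for 4 of 5 tested markers, with a median of -0.40. In the striatal list, Rxrg was 22.0, 21.9, 40.9, 2.79 and 41.5 CPM in untreated and 4.75 to 15.5 CPM in RG2833 animals. Tac1 of the same list was 6.63, 9.69, 6.95, 1.58 and 10.6 CPM in untreated and 1.36 to 3.62 CPM in RG2833 animals (-1.47, log2; adjusted p = 0.0617 by edgeR). Estimates were above 0 for 4 of the 10 striatal markers and below 0 for 6, with a median of -0.23. The part of these marker levels in the receptor values was not tested.

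**Figure D5:**
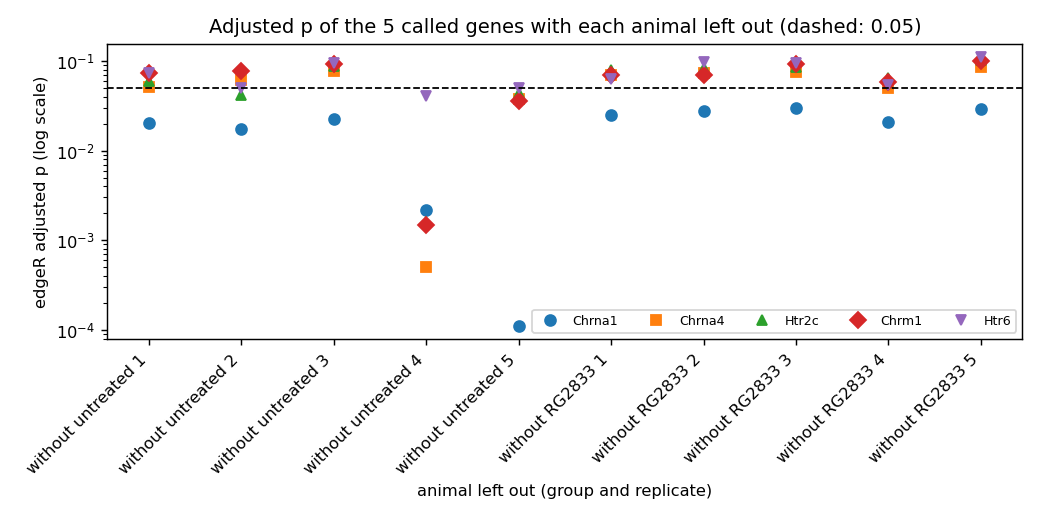
The plot of leave-one-out fits gives the edgeR adjusted p (log axis) of the 5 called genes with each animal left out in turn (horizontal axis), and a dashed line at 0.05. Chrna1 lies below the line in all 10 fits, and the other 4 genes lie below it together only without untreated replicate 4.

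Grouped by coupling, 1 of 7 tested Gs-coupled genes was called (Htr6, higher), 0 of 9 Gi/o-coupled genes (1 at an unadjusted p under 0.05, and DESeq2 called Adra2a), 2 of 8 Gq/11-coupled genes (Chrm1 higher and Htr2c lower), 1 of 6 neuronal channel subunit genes (Chrna4, lower) and 1 of 2 muscle-type subunit genes (Chrna1, lower). The share over all tested genes was 5.08%, and groups this small allow no reading against it. The median log2 fold changes were -0.05 for Gs, 0.27 for Gi/o, -0.13 for Gq/11, -0.38 for the neuronal channels (Htr3a included) and -1.14 for the muscle-type genes.

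The genes that make, carry and break down the transmitters and that transmit the receptor signal were read from 4 lists, of which 79 genes were tested and 3 passed (3.8%, near the 5.08% of all tested genes). Of 12 tested genes of transmitter synthesis, transport and breakdown, 0 were called by edgeR (5 at an unadjusted p under 0.05), 1 by DESeq2 (Ache) and 0 by limma-voom, with a median log2 fold change of -0.23. Ache, the enzyme that ends the acetylcholine signal, was 39.6 to 64.2 CPM in untreated and 64.7 to 77.4 CPM in RG2833 animals, without overlap (0.37 ± 0.11, log2, SE; adjusted p = 0.0788 by edgeR). Maoa, a monoamine oxidase, had a log2 fold change of -0.28 ± 0.09 (SE; adjusted p = 0.092 by edgeR). Slc6a2, the noradrenaline transporter gene of afferent neurons, had no count in any animal.

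Of 32 tested G protein and effector genes, edgeR called 1 (9 at an unadjusted p under 0.05), DESeq2 5 and limma-voom 1, with a median log2 fold change of 0.06. Gnao1, the Go alpha subunit, rose from 280.5 to 421 CPM over the untreated animals to 456 to 490 CPM over the RG2833 animals (0.42 ± 0.09, log2, SE; adjusted p = 0.0322 by edgeR). Gnaq, the Gq alpha subunit, did not pass (0.45 ± 0.15, log2, SE; adjusted p = 0.0897 by edgeR). Of 22 tested desensitisation and RGS genes, whose RGS proteins speed the shut-off of G proteins, 1 rose and 1 fell in edgeR, with a median of 0.10. At an unadjusted p under 0.05, 9 were higher and 1 lower, and DESeq2 called 4 and limma-voom 2. Over all tested genes, 24.5% had an unadjusted p under 0.05 in edgeR, 1394 higher and 1493 lower. DESeq2 called 11% of all tested genes and limma-voom 4.66%. Rgs4 fell (-1.18 ± 0.27, log2, SE; adjusted p = 0.0345 by edgeR), at 60.4, 81.5, 72.9, 24.3 and 91.4 CPM in untreated and 23.7 to 35.5 CPM in RG2833 animals, again with untreated replicate 4 inside the RG2833 range. Its call was lost in limma-voom and in both limma trend fits, which called Rgs14 in its place. Rgs8 rose (0.51 ± 0.11, log2, SE; adjusted p = 0.0260 by edgeR), at 36.4 to 52.4 CPM in untreated and 52.0 to 69.2 CPM in RG2833 animals. Without untreated replicate 1, as without replicate 3 or RG2833 replicates 1, 2, 4 or 5, 0 genes of the 4 lists passed in edgeR (18 to 26 at an unadjusted p under 0.05), and without untreated replicate 4 12 passed.

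Of 13 tested receptor chaperones and accessory proteins, 0 were called by edgeR (3 at an unadjusted p under 0.05), 1 by DESeq2 (Lypd1) and 0 by limma-voom. Lypd1, a GPI-anchored protein that damps nicotinic receptors, was 47.0, 73.1, 82.7, 24.9 and 87.6 CPM in untreated and 28.0 to 39.0 CPM in RG2833 animals (-0.95 ± 0.27, log2, SE; adjusted p = 0.06 by edgeR). Untreated replicate 4 was again the lowest of all animals. Ly6h, a relative of Lypd1, had a log2 fold change of -0.32 ± 0.14 (SE; adjusted p = 0.172 by edgeR). Ric3 (0.04) and Tmem35 (-0.48), chaperones of nicotinic receptor assembly, did not pass (log2 fold change; adjusted p = 0.816 and 0.224 by edgeR).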

How the data were processed

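Reads were processed by the submitters with bcl2fastq 2.17, Bowtie2 2.1.0, RSEM 1.2.15 and edgeR, with build rn6, per the submitters' processing notes. Per the labels' protocols, the libraries were strand-specific mRNA libraries. The gene annotation and the strand setting of the counting are not given in the sources used here. The authors deposited expected counts (RSEM, not normalized) and a TMM-scaled signal made from counts. 

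Columns were matched to animals by title. Expected counts were rounded, filtered with filterByExpr by group and tested with edgeR 4.0.16 (R 4.3.3; quasi-likelihood, TMM, no covariate) over 11791 genes, with Benjamini-Hochberg adjustment and a threshold of 0.05. CPM uses TMM-scaled library sizes. SE was taken as the size of the log2 estimate over the root of its F statistic. Alternatives used DESeq2 1.42.0 and limma 3.58.1. The scripts were tested on simulated data. No within-group pair agreed within sampling noise (chi-square per degree of freedom 4.74 to 37.9), and each library was counted as 1 sample, as labelled.

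Every matching gene could be named, except 1 tested gene that entered the counts and is not reported here. Values in each animal are given for called genes and, in each family, for the 2 genes with the smallest p and the 2 with the highest mean CPM. In each pathway list, called genes and the 2 with the smallest p are named. Htr1b, Htr3a, Prlr, Calb2, Rxrg, Kcne2, Enpp2, Clic6, Pou3f1, Fibcd1, Mpped1 and Lef1 were chosen after their values were seen. So were Tcf7l2, Slc17a6, Prkcd, Tac1, Rgs14, Slc6a2, Rapsn, Musk, Ric3 and Tmem35. Members and lists were chosen with earlier results of these data known. The upper limits given for genes with no count cover counting error only. The SD and SE values also include the differences between animals.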

Additional observations from a re-analysis of the deposited data

Results flagged for a closer look

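The 32 tested receptor genes gave 64 sets of 5 values, 1 per gene and treatment. In 2 of them a single animal stood off from its group by more than Dixon's 95% limit, a gap of 0.71 of the range, where chance alone gives about 3.2. For Htr5b this was untreated replicate 4 at 41.8 CPM, the remaining untreated values being 10.6 to 15.8 CPM (0.833 of the range). For Chrna2 it was RG2833 replicate 3 at 7.44 CPM, the remaining RG2833 values being 8.58 to 8.97 CPM (0.746 of the range).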

How the results depend on the processing

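Of 32 tested receptor genes 5 passed, and the number was 5 with DESeq2 size factors, 6 with library totals only, 4 with no filter on low counts, 5 with a mean count of at least 50, 7 with DESeq2's Wald test and 4 with limma trend on the deposited signal at either pseudocount (1 or 0.1). Limma-voom gave 3 (Chrm1, Chrna1 and Htr6), the choroid plexus score as a covariate 1 (Chrna1), the ribosomal RNA share as a covariate 0 (3 at an unadjusted p under 0.05) and an adjusted p under 0.1 gave 8. Across the fits that left out 1 animal the number ran from 1 to 10. The count of 3 pathway genes became 11 with DESeq2's Wald test, 11 at an adjusted p under 0.1, 0 with the choroid plexus score (22 at an unadjusted p under 0.05) and 0 with the ribosomal RNA share (1 at an unadjusted p under 0.05), and ran from 0 to 12 with 1 animal left out. Over all genes, 599 calls became 1295 with DESeq2's Wald test, 129 with the choroid plexus score, 2 with the ribosomal RNA share, 1466 at an adjusted p under 0.1 and 98 to 1556 with 1 animal left out. The same-numbered animals are different rats, their deviations from the group means had a mean correlation of -0.066, and 1 of 10 samples correlated best with its own number, so the numbers did not pair them. With the replicate block 1 receptor gene (Chrna1), 0 pathway genes (27 at an unadjusted p under 0.05) and 180 genes in all passed. The median log2 fold change over tested receptor genes was -0.041 and became 0.26 with a mean count of at least 50, which left 18 receptor genes tested. Under the other alternatives it moved by less than 0.19, the spread between animals. Estimates changed sign under at least 1 alternative for 11 of the 32 tested receptor genes, of which 0 were among the 5 called. With the ribosomal RNA share these were Chrm3 (-0.39), Chrm2 (-1.57), Htr4 (-0.77), Adra1b (0.60), Htr1b (-0.02) and Htr7 (0.30). Htr7, Chrm4, Htr5a and Chrna7 also turned with 1 animal left out (-0.25 to 0.25, -0.09 to 0.11, -0.08 to 0.06 and -0.29 to 0.09). Htr7 turned as well in limma-voom (0.15), both limma trend fits (0.08 and 0.14) and with the replicate block (0.09), and Chrm4 with the choroid plexus score (-0.06). The sign turned for Drd2 with the choroid plexus score (0.014) and without untreated replicate 5 (0.059, the range being -0.36 to 0.059), and for Drd1 with 1 animal left out (-0.31 to 0.10). The cause was not tested for any of these changes. The 17 receptor genes under the filter had too few counts to be tested in the main fit. With no filter on low counts 45 receptor genes were tested, and the 4 called were all among the 5.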
